A study of Mus musculus with 15 samples.

Results

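A set of fibroblast growth factor (FGF) ligands and receptors was followed through the differentiation of a glioma stem cell line toward endothelial cells. The 9 genes were chosen by symbol: the ligands Fgf1, Fgf2, Fgf7 and Fgf9 and the receptors Fgfr1, Fgfr2, Fgfr3, Fgfr4 and Fgfrl1, which are 4 ligands and 5 receptors of 49585 genes in the table. RNA was sequenced from 15 libraries in 5 groups of 3. The group 005 is a mouse glioma stem cell line of C57BL/6 strain, kept as stem cells in serum-free medium. Tumor derived endothelial cells (TDECs) were 005 cells cultured in EGM-2, a medium for endothelial cells that itself supplies recombinant FGF2, at 1% oxygen, and they were collected on day 2 or as untreated TDECs whose labels carry no day and which were taken as the later time point of the study. The 005 group differs from them in medium, and no oxygen level was given for it. Medium, oxygen, time in culture and differentiation therefore cannot be told apart between 005 and TDECs. The word differentiation is used here for this whole change of conditions. TDEC sertraline cells were given 5 µM of the antidepressant sertraline on day 5 for 24 h. The treated cells may therefore be older than the untreated TDECs, and the labels of the treated libraries lack a series prefix that the untreated ones carry, so neither age nor series can be told apart from the drug. MBMECs were purchased mouse brain microvascular endothelial cells, grown in another medium with serum and with no oxygen level given. Their labels also lack the series prefix, which those of 005, day 2 and untreated TDECs carry. Cell origin, medium, oxygen and series therefore cannot be told apart in comparisons with MBMECs. All groups but the MBMECs come from the same cell line, and nothing in the sources says that the libraries of 005, day 2 and MBMECs came from separate cultures, so their p-values may measure technical spread only.

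FGFs are secreted ligands that bind receptor tyrosine kinases together with heparan sulfate chains on the cell surface. Bound receptors pair, phosphorylate the adaptor FRS2 and drive the RAS-MAPK cascade, which switches on ETV transcription factors and feedback inhibitors such as the Sprouty and DUSP proteins. Fgfrl1 binds FGFs but lacks the kinase domain. In the brain FGF2 keeps neural stem cells dividing, FGFR3 is typical of astrocytes, and FGF1 and FGF2 are also known as angiogenic factors.

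Libraries held 11283680 to 17093061 counts. Levels are given as counts per 1000000 counts of the library (CPM), scaled by the trimmed mean of M-values over the 15 libraries. Replicates within groups differed by a chi-square per gene of 2.15 to 4.94, except that replicate 3 of 005 stood at 11.2 and 11.4 from its partners, replicate 3 of day 2 at 11.1 and 11.7, and replicate 2 of the sertraline group at 6.97 and 7.27. The summed level of 10 endothelial markers was 7158 to 7328 CPM in MBMECs and 6.29 to 15.1 CPM in the other 12 libraries, in which the tight junction gene Cldn5 had no count. Kdr rose from 1.20 CPM in 005 to 5.42 CPM on day 2 and 4.04 CPM in untreated TDECs (log2 2.13 and 1.72 against 005, adjusted p = 0.0031 and 2.29e-04, edgeR), beside 599 CPM in MBMECs. The markers did not move together. Pecam1, the gene of CD31, was lower in untreated TDECs than in 005 (0.740 against 1.38 CPM, log2 -0.90, adjusted p = 0.039, edgeR). So was Vwf (1.23 against 2.39 CPM, log2 -0.97, adjusted p = 0.0073), both by under 2-fold. Egfl7 did not pass (log2 -0.50, adjusted p = 0.20). The study named the cells by CD31 and CD34 staining and also reported tube formation, neither of which was examined here. The label TDEC is used here as a name only. Neural and glioma stem cell markers summed to 2255 to 2536 CPM in 005 and 1453 to 1503 CPM in untreated TDECs. They did not move together: Prom1 rose from 25.8 to 112 CPM, while Sox2 (301 to 236 CPM), Olig2, Nes, Fabp7 and Sox9 were lower. RNA from bulk cultures does not separate fewer cells of a type from less RNA per cell, and this holds for every level below.

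Promoter sequences are shown for 3 members whose RNA changed in a comparison below and whose window lies outside annotated exons: Fgfrl1, which fell during differentiation, and Fgf7 and Fgfr2, which were higher with sertraline. The windows hold the 250 bases before a RefSeq start site on GRCm38.p6 (the build also called mm10), 5' to 3' on the gene's strand. Of the 9 members, 7 matched the RefSeq promoter table by symbol. Capitals mark a motif match.
Fgfrl1, chr5:108693979-108694228, + strand: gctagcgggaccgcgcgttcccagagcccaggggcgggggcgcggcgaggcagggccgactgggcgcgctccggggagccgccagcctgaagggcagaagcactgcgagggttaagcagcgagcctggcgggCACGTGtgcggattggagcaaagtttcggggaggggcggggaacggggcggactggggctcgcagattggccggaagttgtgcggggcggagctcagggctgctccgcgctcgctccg
Fgf7, chr2:126034408-126034657, + strand: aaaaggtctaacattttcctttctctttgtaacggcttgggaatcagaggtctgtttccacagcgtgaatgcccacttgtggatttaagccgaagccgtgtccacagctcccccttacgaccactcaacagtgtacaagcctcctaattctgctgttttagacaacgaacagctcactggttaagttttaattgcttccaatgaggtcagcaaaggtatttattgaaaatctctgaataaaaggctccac
Fgfr2, chr7:130266809-130267058, - strand: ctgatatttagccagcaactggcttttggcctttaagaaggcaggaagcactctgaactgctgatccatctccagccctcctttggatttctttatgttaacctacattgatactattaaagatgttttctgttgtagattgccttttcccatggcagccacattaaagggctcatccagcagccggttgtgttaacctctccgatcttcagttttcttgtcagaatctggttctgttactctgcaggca
The window of Fgfrl1 was rich in G and C (73.6%), against 43.6% for Fgf7 and 44.0% for Fgfr2. Both strands were searched for ACGTG (the core of the hypoxia response element), CACGTG (the E-box, which contains that core on each strand) and TGACTCA (an AP-1 site). These were held by 16.6%, 6.02% and 4.46% of 32851 promoter windows of the same length. Fgfrl1 held an E-box whose overlapping ACGTG matches began 118 and 117 bases before the start site. In the windows of Fgf7 and Fgfr2 none of the 3 strings occurred. A match is a string of letters, and binding was not measured.

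**Figure D1:**
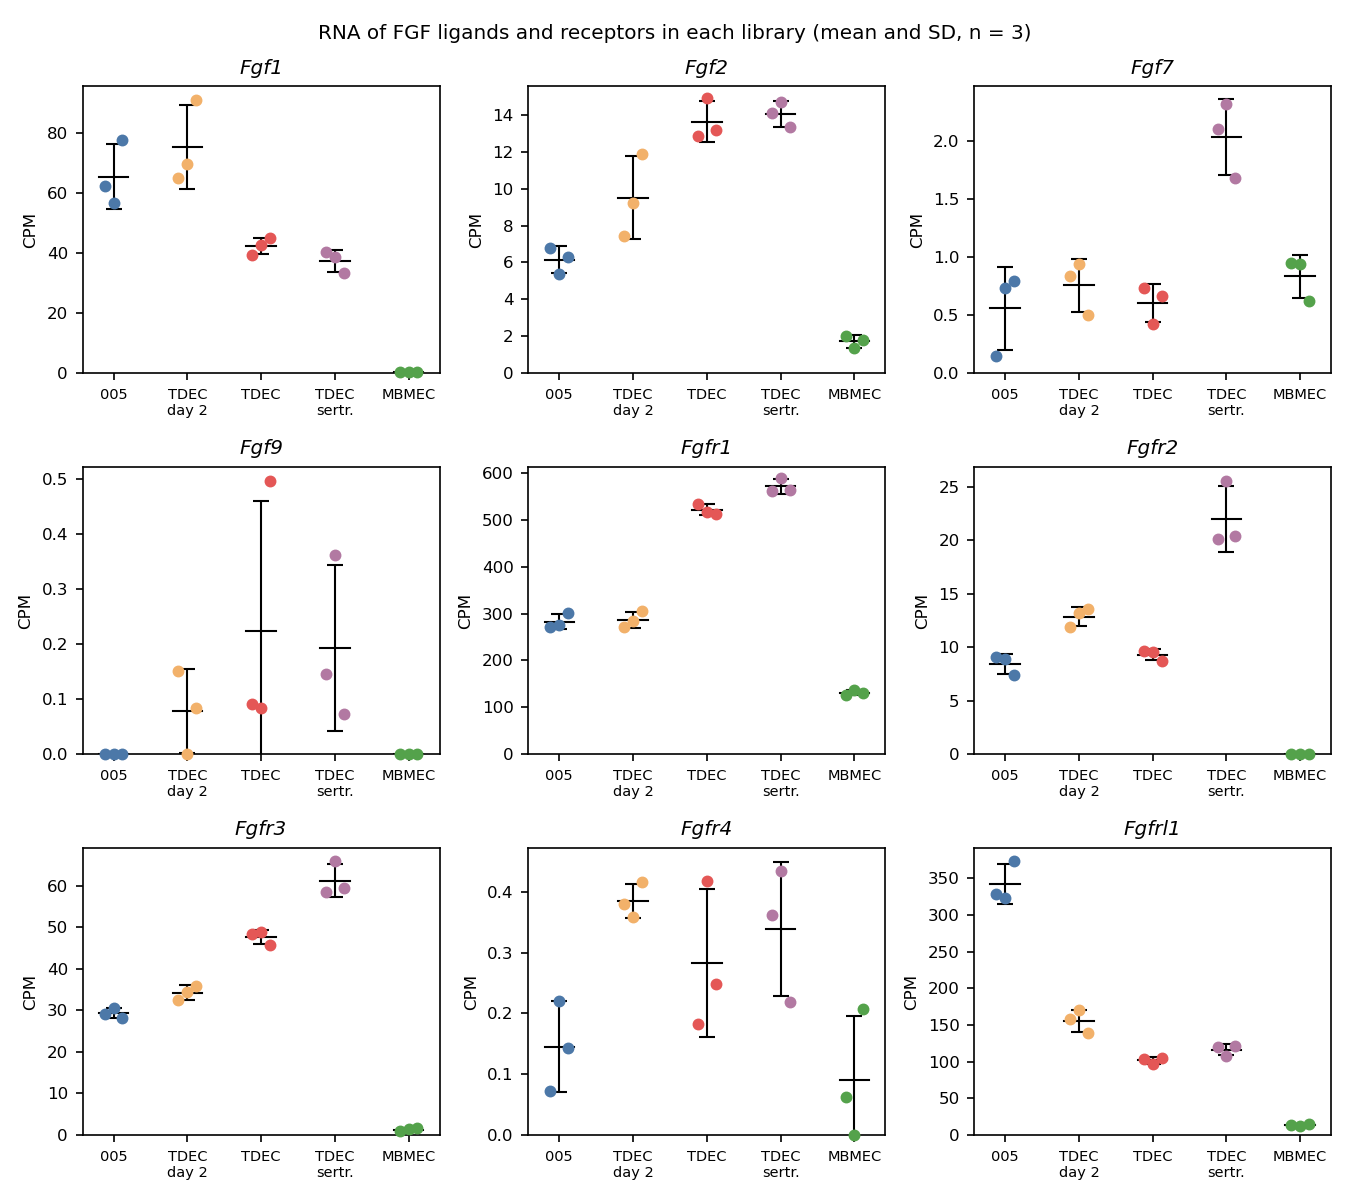
RNA levels in CPM (linear axes from 0, a scale of its own for each gene) of the 9 FGF ligands and receptors in 005, TDEC day 2, untreated TDEC, TDEC sertraline and MBMEC. Points are the 3 libraries of a group and bars the mean and SD; Fgfrl1 was highest in 005 at 324 to 373 CPM, Fgfr1 and Fgfr3 were highest in the untreated and sertraline-treated TDECs, and Fgfr2 had no count in MBMECs.

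Among the ligands, acidic FGF (Fgf1, ENSMUSG00000036585), which can bind all FGF receptors, was the most abundant per kb of exons in the glioma-derived groups. Its level in replicates 1, 2 and 3 was 62.2, 56.7 and 77.6 CPM in 005, 65.1, 69.6 and 91.2 CPM on day 2, and 39.5, 42.8 and 44.9 CPM in untreated TDECs. With sertraline it was 40.3, 38.6 and 33.4 CPM, and in MBMECs 0.504, 0.469 and 0.483 CPM. The untreated TDEC libraries lay below all libraries of 005 and day 2, and the MBMECs lay far below the rest. In the fit of untreated TDECs against day 2 the log2 fold change was -0.84 (SE 0.12, edgeR quasi-likelihood test, adjusted p = 9.02e-05), which is 1.79-fold and under the 2-fold limit. Against 005 it was -0.64 (SE 0.11, adjusted p = 2.61e-04), also under the limit. Replicate 3, which stood apart, was the highest Fgf1 value in 005 and on day 2, and without it the change was -0.69 against day 2 and -0.50 against 005. Day 2 and 005 overlapped and did not pass the test (0.18, 95% confidence interval -0.13 to 0.50). Untreated TDECs exceeded MBMECs by a log2 fold change of 6.43 (SE 0.16, adjusted p = 3.43e-24), an 85.9-fold difference that rests on 22 counts in the 3 MBMEC libraries. Sertraline and untreated TDECs overlapped in Fgf1, with a log2 difference of -0.19 (95% confidence interval -0.37 to -0.01, adjusted p = 0.090).

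Basic FGF (Fgf2, ENSMUSG00000037225, chr3:37348346-37410108), the ligand used to grow neural stem cells, rose through differentiation. It was at 6.79, 5.37 and 6.31 CPM in 005, 7.45, 9.20 and 11.9 CPM on day 2, and 12.9, 14.9 and 13.2 CPM in untreated TDECs. The 3 groups did not overlap. The rise from 005 to untreated TDECs passed the 2-fold limit, at a log2 fold change of 1.13 (SE 0.14, adjusted p = 2.02e-05). Each step alone stayed under 2-fold, at 0.60 (SE 0.20, adjusted p = 0.034) from 005 to day 2 and 0.51 (SE 0.17, adjusted p = 0.022) from day 2 to untreated TDECs. The earlier step missed an adjusted p of 0.05 in 7 of 13 alternative fits, at up to 0.11, among them those without replicate 2 or 3 of day 2 (0.057 and 0.10) or without any 1 of the 005 libraries (0.050 to 0.11). The later step missed it in 3 of 12, at up to 0.090, without replicate 2 of untreated TDECs or replicate 1 or 2 of day 2. With sertraline Fgf2 was at 14.1, 14.7 and 13.3 CPM, overlapping the untreated TDECs (log2 difference 0.03, 95% confidence interval -0.20 to 0.27, adjusted p = 0.84). In MBMECs it was at 2.02, 1.34 and 1.79 CPM, below every other library, and untreated TDECs were 7.91-fold higher (log2 2.98, SE 0.18, adjusted p = 4.60e-15). The exons of Fgf2 share 640 bases with the antisense gene Nudt6, which had 48 to 61 counts in 005 and 71 to 89 in untreated TDECs. The library kit keeps strand, but the strand setting of the counting was not given in the sources used here, so reads of Fgf2 and Nudt6 may be mixed.

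Keratinocyte growth factor (Fgf7, ENSMUSG00000027208, chr2:126034658-126091185), made by mesenchymal cells and bound by a splice form of FGFR2, stood out with sertraline. Its level was 2.1, 2.32 and 1.68 CPM there (29, 32 and 23 counts), against 0.730, 0.418 and 0.663 CPM in untreated TDECs (8, 5 and 8 counts). The groups did not overlap. The difference was 3.33-fold, a log2 fold change of 1.73 (SE 0.35, 95% confidence interval 1.00 to 2.47, adjusted p = 0.0011). It was 1.63 (adjusted p = 0.0021) without replicate 2 of the sertraline group. In the remaining groups Fgf7 was at 0.145, 0.735 and 0.789 CPM in 005, 0.836, 0.934 and 0.499 CPM on day 2, and 0.945, 0.938 and 0.621 CPM in MBMECs. These 9 libraries and the untreated TDECs overlapped one another, and all lay below the sertraline libraries. The summed level of 9 fibroblast and mural cell markers moved in the same direction, from 25.5 to 28.3 CPM in untreated TDECs to 36.4 to 37.6 CPM with sertraline. All 9 had counts in both groups. Of the 5 that were tested, 3 were called higher, beside 1.82% of all genes: Acta2 (smooth muscle actin, 0.739 to 4.5 CPM), Dcn (decorin, 0.305 to 1.6 CPM) and Col1a1 (collagen, 1.11 to 2.76 CPM). Acta2 and Dcn had 26 and 11 counts over the untreated libraries and passed the filter only through the sertraline group. Pdgfra, the largest part of the sum, was level (19.8 and 19.9 CPM), and Pdgfrb rose by under 2-fold. Of the untested markers, Rgs5 went from 0.344 to 0.145 CPM, while Col1a2, Lum and Postn were higher. Their part in the Fgf7 result was not tested.

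Fgf9 (ENSMUSG00000021974, chr14:58070547-58112337), a ligand that stimulates glial cells, was close to absent. It had no count in 005, where 3 counts over the group would be 0.0725 CPM, and none in MBMECs, where they would be 0.0662 CPM. Day 2 libraries had 2, 0 and 1 counts, untreated TDECs 1, 1 and 6, and sertraline-treated TDECs 2, 5 and 1. It passed the filter on low counts in no comparison. When no filter was used, its difference between untreated TDECs and 005 had an adjusted p of 0.026 on 8 counts, of which 6 came from replicate 3.

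Fgfr1 (ENSMUSG00000031565, chr8:25513654-25575718), the main FGF receptor of neural stem cells, had the highest level per kb of exons among the kinase receptors in every group. It was at 271, 276 and 302 CPM in 005, 272, 285 and 306 CPM on day 2, and 535, 518 and 513 CPM in untreated TDECs. The 005 and day 2 libraries overlapped (log2 difference 0.0022, 95% confidence interval -0.17 to 0.17), while all untreated TDEC libraries were above them. Untreated TDECs were 1.80-fold above day 2 (log2 0.85, SE 0.06, adjusted p = 2.11e-07) and 1.82-fold above 005 (log2 0.87, SE 0.06, adjusted p = 8.67e-08), differences that passed the adjusted p but not the 2-fold limit. With sertraline Fgfr1 was at 561, 590 and 565 CPM, above the untreated libraries without overlap. That difference was 0.12 (SE 0.05, 95% confidence interval 0.02 to 0.22) with an adjusted p of 0.054, and the adjusted p was under 0.05 in 3 of 12 alternative fits, among them 0.10 on the log2 scale with an adjusted p of 0.032 without replicate 2 of the sertraline group. MBMECs had 127, 137 and 130 CPM, the lowest of all groups, and untreated TDECs were 3.98-fold higher (log2 1.99, SE 0.05, adjusted p = 8.31e-25). The antisense gene Gm16159 shares 164 exonic bases with Fgfr1 and had 207 to 245 counts in 005, 311 to 335 in untreated TDECs and 421 to 484 with sertraline.

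Fgfr2 (ENSMUSG00000030849), a receptor of glial and epithelial cells, had 2 maxima, on day 2 and with sertraline. It was at 9.11, 8.90 and 7.39 CPM in 005, 11.9, 13.2 and 13.6 CPM on day 2, and 9.67, 9.53 and 8.70 CPM in untreated TDECs. The day 2 libraries lay above both other groups, by 0.58 against 005 (SE 0.15, adjusted p = 0.0097), while untreated TDECs were lower than day 2 (-0.48, SE 0.13, adjusted p = 0.0075), both under 2-fold. Untreated TDECs and 005 overlapped (0.12, 95% confidence interval -0.19 to 0.43). With sertraline the level was 20.1, 25.6 and 20.4 CPM, above every other library. Against untreated TDECs this was a 2.35-fold rise, a log2 fold change of 1.24 (SE 0.12, 95% confidence interval 0.97 to 1.5, adjusted p = 1.61e-06). Replicate 2 of the sertraline group, which stood apart, was the highest, and without it the log2 fold change was 1.12 (adjusted p = 3.99e-09). MBMECs had no Fgfr2 count, and set against 3 counts in the whole group, Fgfr2 was at least 140-fold higher in untreated TDECs and at least 128-fold higher in 005. The annotated gene, chr7:130162451-133123350, spans 2960900 bases because of 1 long transcript, where the next longest spans 103813, and it shares 314 exonic bases with Ctbp2 on the same strand. Ctbp2 had 1075 to 1182 counts in the MBMEC libraries in which Fgfr2 had none.

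Fgfr3 (ENSMUSG00000054252, chr5:33721674-33737068), the receptor typical of astrocytes, was higher in untreated TDECs than in 005 and higher again with sertraline. It was at 29.1, 30.5 and 28.1 CPM in 005, 32.5, 34.4 and 35.9 CPM on day 2, and 48.3, 48.8 and 45.6 CPM in untreated TDECs. With sertraline it was at 58.4, 65.8 and 59.4 CPM, and no group overlapped another. Untreated TDECs were 1.61-fold above 005 (log2 0.69, SE 0.08, adjusted p = 6.92e-06), and sertraline-treated TDECs 1.28-fold above untreated ones (log2 0.36, SE 0.07, adjusted p = 8.46e-04), both under the 2-fold limit. From 005 to day 2 the difference was 0.21 (adjusted p = 0.10). MBMECs had 1.01, 1.34 and 1.59 CPM, and untreated TDECs exceeded them 36.3-fold (log2 5.18, SE 0.13, adjusted p = 5.24e-24). Beside Fgfr3, the summed level of 6 astrocyte markers was 527 to 539 CPM in 005, 981 to 990 on day 2, 811 to 886 in untreated TDECs and 929 to 968 with sertraline, and 3.15 to 4.62 in MBMECs, where 3 of the 6 had no count. Most of the sum outside MBMECs was Slc1a3 (499, 901, 726 and 824 CPM in the same order). Of the 6, only Gfap was higher in each next group of that order (3.95, 18.9, 33.7 and 51.7 CPM). Slc1a2 was higher in untreated TDECs than in 005 but lower with sertraline (70.78 to 59.65 CPM, log2 -0.26, adjusted p = 0.0093, edgeR). Aldh1l1 was also higher in untreated TDECs than in 005, and its difference with sertraline did not pass (8.252 to 7.307 CPM, adjusted p = 0.36). Aqp4 passed in neither comparison (adjusted p = 0.35 and 0.48). S100b was lower in untreated TDECs than in 005 (0.541 against 1.26 CPM), and it was at 3.81 CPM in MBMECs. Their part in the Fgfr3 values was not tested. The antisense gene G630022F23Rik shares 998 exonic bases with Fgfr3, and it had 41 to 61 counts in 005 and 117 to 136 with sertraline.

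Fgfr4 (ENSMUSG00000005320, chr13:55152640-55168759), a receptor best known from liver and muscle, was barely detected. It had 1, 3 and 2 counts in 005, 5, 5 and 5 on day 2, 2, 5 and 3 in untreated TDECs, 5, 6 and 3 with sertraline and 1, 0 and 3 in MBMECs. It passed the filter on low counts in no comparison, and no difference was detectable at this depth.

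The decoy-like receptor Fgfrl1 (ENSMUSG00000008090, chr5:108692382-108706924) fell during differentiation. It was at 329, 324 and 373 CPM in 005, 158, 170 and 139 CPM on day 2, and 103, 96.7 and 105 CPM in untreated TDECs. The 3 groups stood apart with no overlap. The fall to day 2 was 2.22-fold (log2 -1.15, SE 0.09, adjusted p = 4.48e-06), and that to untreated TDECs 3.39-fold (log2 -1.76, SE 0.07, adjusted p = 7.67e-10). From day 2 to untreated TDECs the difference was -0.63 (SE 0.08, adjusted p = 3.22e-05), under 2-fold. Replicate 3 was the highest Fgfrl1 value in 005 and the lowest on day 2, and without replicate 3 of both groups, an alternative chosen after seeing the data, the fall to day 2 was -0.99 and so just under the 2-fold limit. With sertraline Fgfrl1 was at 120, 108 and 122 CPM, above the untreated TDECs without overlap (log2 0.18, SE 0.06, 95% confidence interval 0.05 to 0.32, adjusted p = 0.030), but the adjusted p was over 0.05 in 5 of 12 alternative fits, at up to 0.15. MBMECs had 14, 12.3 and 14.5 CPM, so untreated TDECs were 7.5-fold above them (log2 2.91, SE 0.08, adjusted p = 8.15e-24), and 005 was 25.1-fold above them (log2 4.65, SE 0.09, adjusted p = 2.52e-13).

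**Figure D2:**
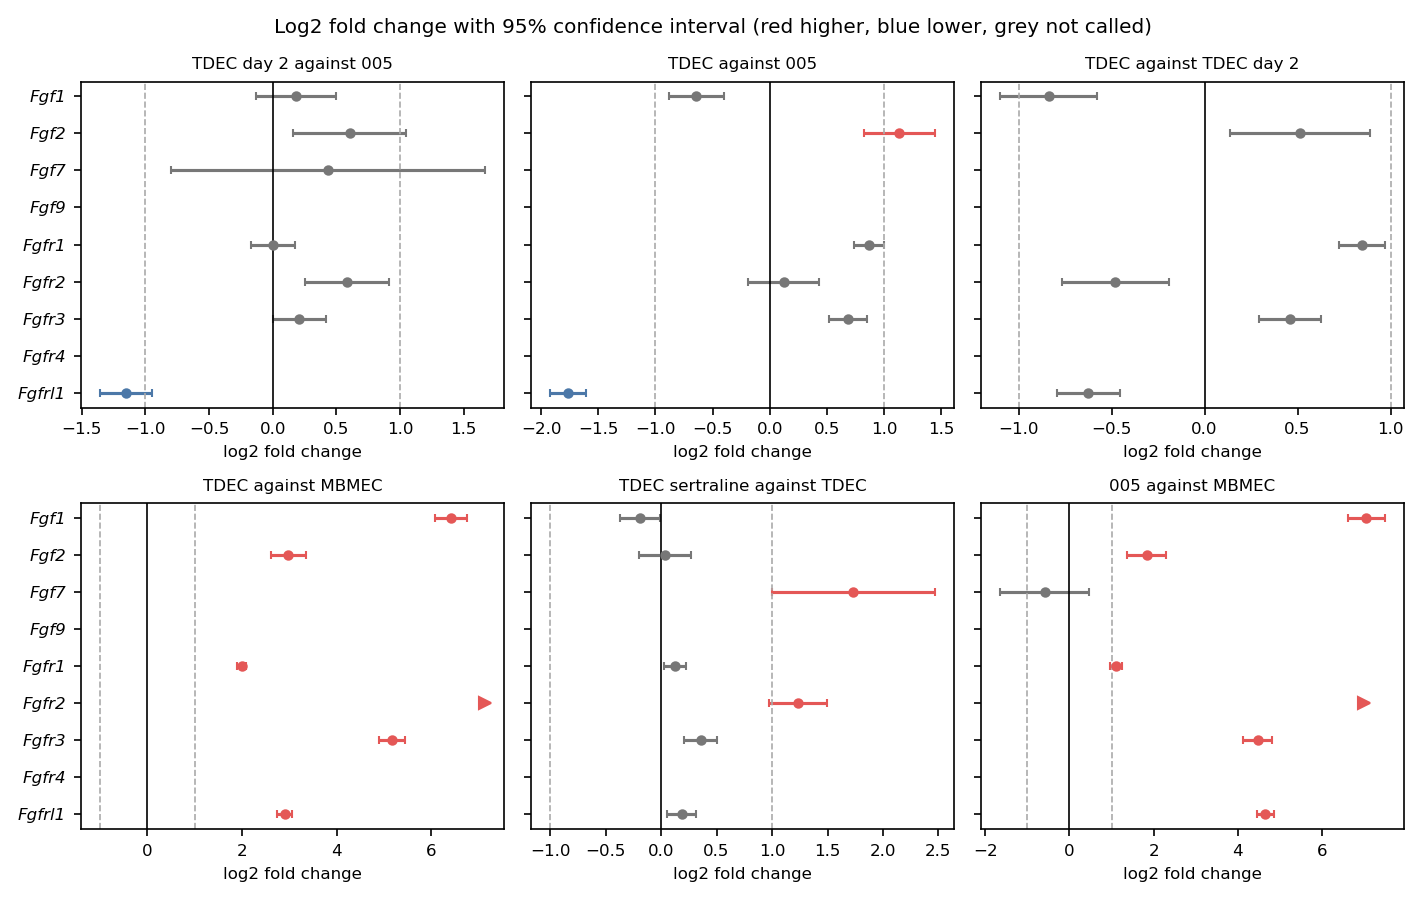
Log2 fold changes (x axis, a scale of its own for each comparison) of the tested FGF ligands and receptors in 6 comparisons, from fits of 6 libraries each. Points and bars are the estimate and its 95% confidence interval, dashed lines mark 2-fold, red and blue are called higher and lower, grey is not called, and a triangle is a lower bound against 3 counts; all 6 members tested in TDEC against MBMEC were higher, while Fgf7 and Fgfr2 were called higher with sertraline.

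Counted by comparison, a gene was called at an adjusted p under 0.05 with a fold change over 2. On day 2 against 005, 1 of 7 tested members was lower (Fgfrl1) and none higher, against 4.48% and 5.35% of 15344 genes. At an adjusted p under 0.05 whatever the fold, 3 of 7 differed, against 39.0% of all genes. Untreated TDECs against 005 had 1 of 6 higher (Fgf2) and 1 lower (Fgfrl1), against 13.1% and 10.4% of 15648 genes, and 5 of 6 differed whatever the fold, against 65.4%. Between untreated TDECs and day 2 edgeR called 0 of 6, against 11.1% of 15508 genes higher and 9.35% lower. DESeq2 also called 0, although 6 of 6 had an unadjusted p under 0.05 and 6 of 6 an adjusted p under 0.05 in both tools, against 63.0% of all genes. The comparisons of the 3 stages share libraries, so their values stand side by side only.

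With sertraline, 2 of 7 tested members were called higher (Fgf7 and Fgfr2) and none lower, where 1.82% of 15540 genes were higher and 3.26% lower. Fgf7 entered this test only through the sertraline libraries, since its counts in untreated TDECs were under the filter's minimum of 10, so its place in the count depends on the difference itself. Whatever the fold, 4 of 7 differed, against 35.3%. Untreated TDECs exceeded MBMECs in 6 of 6 tested members, against 28.1% of 16135 genes higher and 20.8% lower, and 85.8% that differed whatever the fold. The undifferentiated 005 cells exceeded MBMECs in 6 of 7, against 25.3% of 15992 genes higher and 18.7% lower, and 79.7% that differed whatever the fold. The member that did not was Fgf7 (log2 -0.59, 95% confidence interval -1.64 to 0.47). Fgf1 and Fgfr2 had 8 counts or fewer in each MBMEC library and so passed the filter only through the other group. Both comparisons share the MBMEC libraries. DESeq2 called as many members as edgeR in each of the 6 comparisons.

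The order of the groups was tested in a fit of all 15 libraries, in which 7 members passed the filter and 57 of their 70 pairs of groups differed at an adjusted p under 0.05. Over all 16947 genes, 44.8% differed between 005 and day 2, 61.4% between 005 and untreated TDECs, 60.3% between 005 and sertraline, 61.3% between day 2 and untreated TDECs, 61.3% between day 2 and sertraline, and 25.0% between untreated and sertraline-treated TDECs. With MBMECs the shares were 78.6% for 005, 78.5% for day 2, 81.5% for untreated TDECs and 81.1% for sertraline. For Fgf1 the order ran from day 2 and 005 to untreated and sertraline-treated TDECs and then MBMECs, and neither the upper pair nor the lower pair of glioma-derived groups differed (adjusted p = 0.18 and 0.31). For Fgf2 and Fgfr1 the sertraline group led, with no difference from untreated TDECs (adjusted p = 0.88 and 0.12), followed by day 2, 005 and MBMECs, and only for Fgfr1 did day 2 and 005 not differ (0.81). For Fgf7 the sertraline group was above all others, and the other 4 groups did not differ from their neighbours. Fgfr3 differed in all 10 pairs, among them 005 and day 2 (adjusted p = 0.037), which had not passed in the fit of their 6 libraries. Fgfr2 ran from sertraline to day 2, untreated TDECs, 005 and MBMECs, with no difference between untreated TDECs and 005 (adjusted p = 0.44). For Fgfrl1 the order was 005, day 2, sertraline, untreated TDECs and MBMECs, and sertraline and untreated TDECs did not pass here (adjusted p = 0.090).

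**Figure D3:**
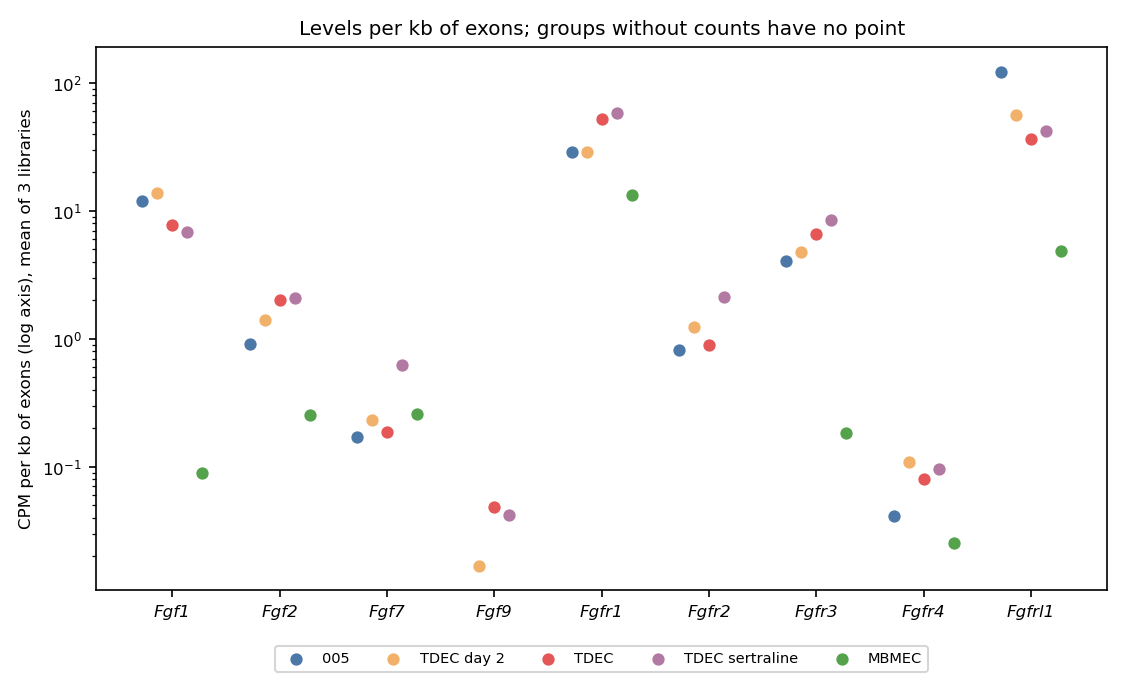
Mean levels of the 9 members in CPM per kb of annotated exons (log axis), which allows genes of different length to be compared. Points are the means of the 3 libraries of 005, TDEC day 2, TDEC, TDEC sertraline and MBMEC, and a group without counts has no point; Fgfrl1 led in 005 at 123 and Fgfr1 in untreated TDECs at 52.8.

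Per kb of exons, Fgfrl1 was the most abundant member in 005, at 123 ± 9.80 CPM per kb (SD, n = 3), with Fgfr1 at 28.7 ± 1.69 and Fgf1 at 12 ± 1.98. In untreated TDECs the order was turned, with Fgfr1 at 52.8 ± 1.18 and Fgfrl1 at 36.6 ± 1.65 CPM per kb, and MBMECs had Fgfr1 at 13.3 ± 0.527 and Fgfrl1 at 4.89 ± 0.407. Fgfr1 made up most of the RNA of the 4 kinase receptors per kb, with a share of 85.3% ± 1.30 in 005, 82.6% ± 0.191 on day 2, 87.4% ± 0.374 in untreated TDECs, 84.3% ± 0.701 with sertraline and 98.5% ± 0.472 in MBMECs. Fgfr3 followed with 12.2% in 005, 11% in untreated TDECs and 1.35% in MBMECs. The share of Fgfr2 was 1.49% ± 0.0583 in untreated TDECs and 3.10% ± 0.318 with sertraline, and that of Fgfr4 was at most 0.309% in any group. Splice forms, which set which ligands a receptor binds, were not counted.

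The genes whose log2 CPM followed each member most closely over the 15 libraries, among 13565 named genes, are given as a description, since the libraries share 5 groups and the MBMECs lie far from the rest. For Fgf1 these were Lrrn2, Gldc and Fam124a (Pearson's r = 0.999, 0.998 and 0.998). Klhl29, Cdkn2a and Aebp1 were most like Fgf2 (0.988, 0.986 and 0.986). Fgf7 had the weakest neighbours, Prelp, Tshz1 and Wnt9a (0.814, 0.804 and 0.796). Fgfr1 was nearest to Slc7a5, Hist1h2bc and Lmo4 (0.994, 0.993 and 0.993), and Fgfr2 to Pdpn, Rgs8 and Maf (0.998, 0.996 and 0.996). Fgfr3 was nearest to Renbp, Zcwpw1 and Twist1 (0.998, 0.998 and 0.997), and Fgfrl1 to Traf4, Tub and Adcyap1r1 (0.997, 0.997 and 0.995).

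The other genes of the pathway were taken from 7 lists with 97 genes. Of the 16 FGF-induced targets and feedback inhibitors tested, none was called by edgeR between untreated TDECs and 005, and none by DESeq2, although 12 had an unadjusted p under 0.05 and the same 12 an adjusted p under 0.05, all under 2-fold. Over all genes 13.1% were called higher and 10.4% lower there. Their median log2 fold change was 0.21, beside -0.01 over all genes. Against MBMECs 12 of 16 were higher and 2 lower in untreated TDECs, with a median of 2.56 beside 0.09 over all genes, of which 28.1% were higher and 20.8% lower. Among the 12, Flrt1 had no count in MBMECs and passed the filter only through the TDECs. The Sprouty inhibitors Spry1 (342 against 1.48 CPM, log2 7.85), Spry2 (472 against 17.8 CPM, log2 4.73) and Spry4 (267 against 12.8 CPM, log2 4.38) and the ETS factor Etv5 (550 against 33.1 CPM, log2 4.06) were among the higher genes. Flrt2 and Flrt3, membrane proteins that bind FGF receptors, were lower (log2 -4.41 and -1.45). In 005 against MBMECs 11 of 16 were higher and 2 lower, beside 25.3% and 18.7% of all genes. On day 2 against 005, 2 of 16 were higher and 1 lower, beside 5.35% and 4.48% of all genes. Il17rd (an inhibitor of FGF signalling, log2 1.32) and Flrt3 (1.20) were higher and the ERK phosphatase gene Dusp5 lower (-1.15). From day 2 to untreated TDECs 2 of 16 were higher and 3 lower, beside 11.1% and 9.35%. Il17rd, Flrt3 and Dusp5 were among them, in the opposite direction, at -1.06, -2.09 and 1.91. Also called there were Etv1 (-1.11) and Flrt1 (1.68), which were not called on day 2 against 005. Those comparisons share the day 2 libraries.

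Of 14 co-receptors, heparan sulfate proteoglycans and FGF carriers tested in untreated TDECs against 005, 5 were higher and 1 lower, with a median of 0.47 beside -0.01 over all genes, of which 13.1% were higher and 10.4% lower. From day 2 to untreated TDECs 1 of 15 was higher (Gpc5, log2 1.30) and none lower, beside 11.1% and 9.35%. Between 005 and untreated TDECs the syndecan Sdc4 went from 16.7 to 179 CPM (log2 3.41, SE 0.07). In the same comparison the glypicans Gpc4 and Gpc6 went from 19.1 to 127 CPM (log2 2.71) and from 61.8 to 154 CPM (log2 1.30). The adhesion molecule Ncam1, which binds FGFR1, went from 164 in 005 to 507 CPM in untreated TDECs (log2 1.61). Sdc3 fell from 228 in 005 to 41.2 CPM in untreated TDECs (log2 -2.49). Of 15 enzymes that make or edit heparan sulfate, 4 were higher in untreated TDECs than in 005 and none lower, beside 13.1% and 10.4% of all genes, among them the epimerase gene Glce (log2 1.00) and the sulfotransferase gene Hs3st3b1 (log2 1.58). Ndst3 and Hpse, also among the 4, had 2 and 16 counts over the 005 libraries and passed the filter only through the TDECs. Against MBMECs 8 of 14 proteoglycans and co-receptors were higher and 1 lower, beside 28.1% and 20.8%. Of the 8, Gpc1, Gpc4 and Gpc5 passed the filter only through the TDECs, Gpc1 with 8 counts over the MBMEC libraries. Gpc4 had no count in MBMECs, so it was at least 1908-fold higher in untreated TDECs, while perlecan (Hspg2), a vascular basement membrane proteoglycan, was lower (106 against 453 CPM, log2 -2.10).

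Of 4 other secreted ligands tested in untreated TDECs against 005, Fgf21 (0.579 to 3.74 CPM, log2 2.65) and Fgf17 (1.61 to 3.35 CPM, log2 1.03) were higher, and among 3 intracellular FGF homologous factors Fgf12 was lower (2.11 to 0.510 CPM, log2 -2.03). Fgf21 had 24 counts over the 005 libraries and passed the filter only through the TDECs. Fgf12 had 18 over the untreated TDEC libraries and passed only through 005, so both entered the test through the difference itself. Of 22 adaptors and proximal signalling genes, Shc1 was higher (log2 1.06) and none lower. Of 4 splicing regulators, Ptbp2 was lower (51.5 against 114 CPM, log2 -1.16). Over all lists 12 of 78 tested genes (15.4%) were higher and 3 (3.85%) lower, beside the 13.1% and 10.4% of all genes. Fgf21, Fgf12, Ndst3 and Hpse are in these counts although they passed the filter through 1 group only. The same holds for Ndst3 on day 2 against 005 and, among others, for Fgf21, Fgf8, Hpse and Fgf12 from day 2 to untreated TDECs. On day 2 against 005, 8 of 77 (10.4%) were higher and 2 (2.60%) lower, beside 5.35% and 4.48%. From day 2 to untreated TDECs, 10 of 79 (12.7%) were higher and 5 (6.33%) lower, close to the 11.1% and 9.35% of all genes. Against MBMECs, 36 of 77 (46.8%) were higher and 8 (10.4%) lower in untreated TDECs, beside 28.1% and 20.8%, and 32 of 74 (43.2%) were higher and 9 (12.2%) lower in 005, beside 25.3% and 18.7%. In the TDEC comparison 7 tested genes had no count in MBMECs: Fgf8, Fgf21, Fgf14, Gpc4, Gpc5, Hs3st3b1 and Flrt1. They passed the filter only through the TDECs and could be called only as higher. Others were low there, such as Hpse and Gpc1 with 1 and 8 counts over the MBMEC libraries. Hs3st1, with 1 count in untreated TDECs, could be called only as lower. In 005 against MBMECs 4 tested genes had no count in 1 group.

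With sertraline 1 of 77 pathway genes was higher (1.30%) and 1 lower (1.30%), shares near the 1.82% and 3.26% of all genes. Fgf17 fell from 3.35 to 1.67 CPM (log2 -1.01, SE 0.24, adjusted p = 0.0034), and Sulf1, an enzyme that removes sulfate from heparan sulfate, rose from 0.779 to 1.6 CPM (log2 1.03, SE 0.38, adjusted p = 0.043). Sulf1 had 27 counts over the untreated libraries and passed the filter only through the sertraline group. None of 16 targets and feedback inhibitors was called by edgeR or DESeq2, while 9 had an unadjusted p under 0.05 and 9 an adjusted p under 0.05, all under 2-fold, and their median was 0.01. A count of 0 of 16 is near the shares of all genes. DESeq2 called 1 of the pathway genes, and the count of 2 was 0 without replicate 1 of untreated TDECs and 1 without replicate 3 of either group.

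**Figure D4:**
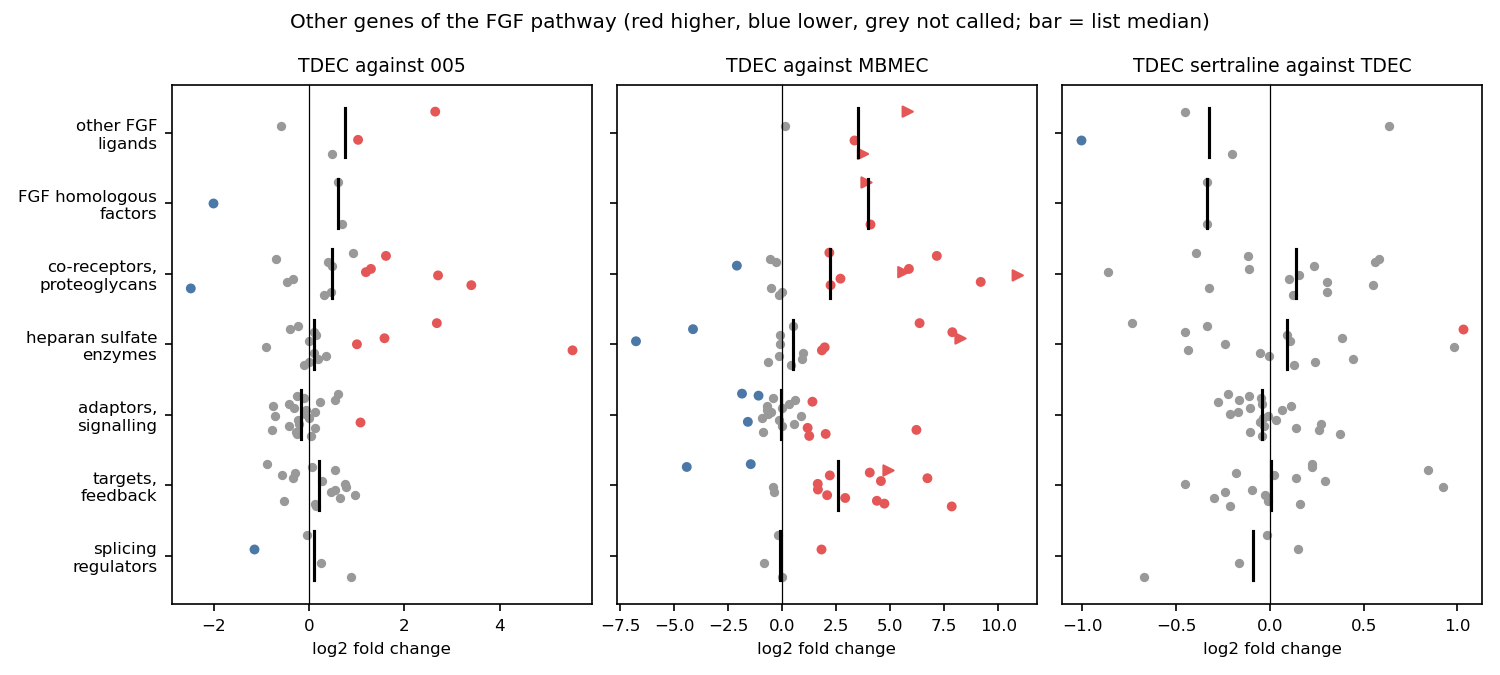
Log2 fold changes (x axis, a scale of its own for each panel) of the tested genes in 7 FGF pathway lists for TDEC against 005, TDEC against MBMEC and TDEC sertraline against TDEC. Each point is a gene, red and blue are called higher and lower, grey is not called, a triangle is a bound where MBMECs had no count, and the black bar is the list's median; of the targets and feedback inhibitors 12 of 16 were higher against MBMECs and none was called in the other panels.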

How the data were processed

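Poly(A) RNA of 15 libraries was sequenced for the study. Whole-number gene counts were deposited, with no normalization by the authors. According to the submitters' processing notes, featureCounts 1.6.3, HISAT2 2.1.0, Trimmomatic 0.38 and bcl2fastq 2.19 were used, on build mm10. The annotation release, the strand setting and the treatment of multiply aligned reads were not given in the sources used here. Of 49585 gene IDs, 49326 were found in GENCODE M21, all 9 members included, and exon lengths were taken from it. The table's own spans of Fgf1 and Fgf9 differ from that release.

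The test was edgeR's two-sided quasi-likelihood test (edgeR 4.0.16 in R 4.3.3), fitted to the 6 libraries of each of 6 comparisons after TMM scaling. Low genes were removed with filterByExpr (minimum count 10), and p-values were adjusted over all tested genes by the Benjamini-Hochberg method. Calls needed an adjusted p under 0.05 and a fold change over 2, the study's own limits. A second fit on all 15 libraries gave the order of groups. The floor for groups without counts was 3 counts over the group, and floors cover counting error only. The scripts were tested on simulated counts. Alternatives were other scaling, DESeq2 1.42.0, no filter, a replicate block, a 15-library fit and leaving out each library. Named pathway genes were at most 4 called per list and direction, by smallest p. The members and lists were chosen with earlier results of these data known. Depth was 11283680 to 17093061 counts per library, so a gene near 1 CPM rests on over 10 counts.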

Additional observations from a re-analysis of the deposited data

How the results depend on the processing

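Of the log2 fold changes of members under the alternatives, 467 kept direction and call (an adjusted p under 0.05 with a fold change over 2), 7 turned direction and 1 ended a call. Within these, 21 fits of 7 results crossed an adjusted p of 0.05 at under 2-fold: Fgf1, Fgf2 and Fgfr3 on day 2 against 005, Fgf2 from day 2 to untreated TDECs, and Fgf1, Fgfr1 and Fgfrl1 with sertraline. The 7 were not called in any of these fits: Fgfr1 on day 2 against 005 (-0.065 with plain library totals, and -0.043 to 0.076 when libraries were left out, negative without day 2 replicate 3 or 005 replicate 1 or 2), Fgf7 there (-0.0069 to 1.01 when libraries were left out, in place of 0.43, negative without 005 replicate 1), Fgfr2 in untreated TDECs against 005 (-0.0094 with plain totals) and Fgf2 with sertraline (-0.0043 to 0.10 when a library was left out, negative without TDEC replicate 1). The call that ended was Fgfrl1 on day 2 against 005, at -0.99 and so 0 members called without replicate 3 of both groups, an alternative chosen after seeing the data. Without a filter on low counts Fgf9 was called in addition in untreated TDECs against 005 and against MBMECs. Pathway genes called with sertraline numbered 2, 1 with DESeq2, 1 in the 15-library fit and 0 to 3 when a library was left out. The causes were not tested. With plain totals the median of all genes was -0.14 for untreated TDECs against 005, 0.15 against MBMECs and 0.30 for 005 against MBMECs, in place of -0.01, 0.09 and 0.09.

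Replicate numbers did not pair the samples, since correlations of equal numbers ran from -0.08 to 0.08. With a replicate block the count of members called stayed the same in all 6 comparisons, and pathway genes called with sertraline went from 2 to 1. Depth limited Fgf7, Fgf9 and Fgfr4, which had at most 32 counts in a library.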
